A study of Mus musculus with 12 samples.

Results

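The heat-shock proteins and their co-chaperones were followed in mouse hearts without apelin and in wild-type hearts, each with and without pressure overload. The members were all genes whose symbols start with Hspa, Hspb, Hspd, Hspe, Hsph, Hsp90, Dnaj or Bag and a number, plus Cryab, and each was read at its probe set with the highest mean on the log2 scale over the 12 arrays. This gave 79 members of the 18193 genes with a probe set annotated to 1 gene. A further 3 probe sets, annotated to Dnajc19 and its pseudogene together, were left out. The level of a gene is its intensity, the linear brightness of its probe set, and differences are on the scale log2(intensity + 16). The filter on low values kept the upper 60% of genes by mean, 10916 genes, and 70 members passed it. The 9 members below it were Dnajb3, Dnajb7, Dnajb13, Dnajc5b, Dnajc5g, Dnajc6, Dnajc22, Hspa1l and Hspb9.

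Total RNA of 12 hearts was measured on Affymetrix arrays, 3 to a group. The groups were apelin-knockout banded, apelin-knockout sham, wild-type banded and wild-type sham. Banding narrows the aorta, so that the left ventricle pumps against raised pressure, and sham mice served as its operated controls. Each array is labelled a biological replicate. The sources used here do not give the kind of Apln allele, the strain, age and sex of the mice, or the time between surgery and sampling. RNA came from whole tissue, so fewer cells of a type and less RNA per cell cannot be told apart.

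Heat-shock proteins hold unfolded or partly folded proteins and help them fold, travel or be destroyed. The Hsp70 proteins bind and release short stretches of unfolded protein in a cycle that burns ATP. J-domain proteins, named Dnaj, bring the substrates and start the cycle. Nucleotide exchange factors, among them the Hsp110 protein and the Bag proteins, end it. Hsp90 takes over partly folded clients such as kinases and steroid receptors, and the small heat-shock proteins hold damaged proteins without using ATP. Heart muscle is rich in small heat-shock proteins, among them Cryab, Hspb6 and Hspb7. Under stress the transcription factor Hsf1 binds heat-shock elements, repeats of GAA and its complement TTC, and switches on Hspa1a, Hspa1b and other inducible members. Hsf1 itself was not analysed here.

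The stretches before the starts of Hspa1a and Hspa1b are shown because both genes rose with banding. Those of Hspb1, Hsph1, Hspe1, Hspd1 and Dnajb6, whose changes did not pass, are shown for their heat-shock elements. RefSeq windows (GRCm38.p6) were found for 64 members, and only the 250 bases before each start were searched, on both strands. The capitals mark matches to GAANNTTC or TTCNNGAA, a pair of units, or to GAANNTTCNNGAA or TTCNNGAANNTTC, a run of 3 units. A 3-unit match contains a 2-unit one. Hspa1a lies on chromosome 17, and its stretch is chr17:34972157-34972406, minus strand. That of Hspa1b is chr17:34959239-34959488, minus strand. The stretch of Hspb1 is chr5:135887669-135887918, plus strand, and that of Hsph1 is chr5:149636337-149636586, minus strand. Short stretches show the 3-unit matches: chr1:55088053-55088082, plus strand, for the neighbours Hspe1 and Hspd1, and chr5:29735844-29735872, plus strand, for Dnajb6.
Hspa1a: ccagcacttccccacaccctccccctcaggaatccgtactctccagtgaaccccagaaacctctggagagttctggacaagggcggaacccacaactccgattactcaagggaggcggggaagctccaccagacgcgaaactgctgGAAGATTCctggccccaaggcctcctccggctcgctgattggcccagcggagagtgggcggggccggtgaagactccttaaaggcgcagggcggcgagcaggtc
Hspa1b: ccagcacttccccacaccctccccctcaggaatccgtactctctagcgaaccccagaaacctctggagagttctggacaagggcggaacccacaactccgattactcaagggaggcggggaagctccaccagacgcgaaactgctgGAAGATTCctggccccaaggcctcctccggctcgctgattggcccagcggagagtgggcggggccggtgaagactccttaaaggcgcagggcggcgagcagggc
Hspb1: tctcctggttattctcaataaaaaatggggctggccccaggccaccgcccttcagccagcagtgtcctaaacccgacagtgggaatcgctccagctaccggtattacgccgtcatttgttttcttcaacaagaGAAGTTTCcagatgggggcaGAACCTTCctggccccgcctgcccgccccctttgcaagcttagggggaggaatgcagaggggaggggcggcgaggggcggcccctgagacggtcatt
Hsph1: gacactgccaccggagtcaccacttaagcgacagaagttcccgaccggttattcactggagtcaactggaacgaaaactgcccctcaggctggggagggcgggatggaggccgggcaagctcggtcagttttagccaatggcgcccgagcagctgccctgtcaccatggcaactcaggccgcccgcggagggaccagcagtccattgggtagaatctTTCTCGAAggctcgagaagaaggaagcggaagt
Hspe1 and Hspd1: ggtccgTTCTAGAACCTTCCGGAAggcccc
Dnajb6: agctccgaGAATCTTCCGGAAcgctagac

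The stretches of Hspa1a and Hspa1b differed at 3 of 250 positions, and both held the same pair of units, whose first base lay 104 bases before the start. A run of 3 units was found for 3 of the 64 members (4.69%), which were Dnajb6, Hspd1 and Hspe1. The neighbours Hspd1 and Hspe1 share the same stretch, which is counted for both genes. Such a run was found for 0.514% of the 27025 genes with windows. A pair of units was found for 14 members (21.9%) and for 14.5% of all genes. The 14 were Dnaja1, Dnaja4, Dnajb4, Dnajb6, Dnajc10, Dnajc27, Hspa1a, Hspa1b, Hspb1, Hspb3, Hspb6, Hspd1, Hspe1 and Hsph1. Hsp90aa1, Dnajc2, Hspa8 and Cryab were among the members without a window, so they were not searched. A match is a string of letters and not a measured binding site.

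A pair of arrays stood apart from the others in lung markers or in sex-linked genes. The first of them, labelled knockout, also read Apln within the range of the wild-type arrays, and the cause was not tested. The array labelled knockout banded 1 read 271 for Apln, against 123 and 160 on the other knockout banded arrays, 63.7 to 111 on knockout sham arrays, 205 to 255 on wild-type banded arrays and 212 to 333 on wild-type sham arrays. Its 4 lung markers (Scgb1a1, Scgb3a2, Sftpb and Sftpc) summed to 1607, against 115 to 185 on the other 11 arrays. Scgb1a1 (1094) and Scgb3a2 (410) carried this sum, while Sftpb at 54.3 and Sftpc at 49.2 lay within the ranges of the other arrays, 28.1 to 89.8 and 12.4 to 51.8. Wild-type banded 3 read 1255 for Xist, a transcript of the inactive X chromosome, and 5.33 for the summed Y-linked genes, where the other arrays read 43.3 to 89.2 for Xist and 377 to 516 for the Y-linked genes. Results are therefore also given without these arrays. All 12 arrays carried heart markers, with 6 cardiomyocyte genes summing to 48636 to 49716 in knockout banded, 60223 to 66081 in knockout sham, 55981 to 70225 in wild-type banded and 50341 to 95685 in wild-type sham hearts. The 5 atrial markers varied widely within groups. They summed to 12421 to 16320 in knockout banded, 5998 to 26418 in knockout sham, 6199 to 34348 in wild-type banded and 4097 to 30388 in wild-type sham hearts. The atrial gene Myl7 read 3.44 on knockout sham 1, against 3549 and 6103 on the other knockout sham arrays. The part of this spread in the members' values was not tested.

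A small set of members rose with banding, led by the inducible cytosolic chaperones Hspa1a, Hspa1b and Hsp90aa1. Averaged over both genotypes, 4 of 70 members rose and none fell in limma's test at an adjusted p of 0.05, where 1.6% of all tested genes passed, 0.934% higher and 0.669% lower. An unadjusted p under 0.05 was found for 23 members, where 18.2% of all genes had one. The members that rose were Hspa1a, Hspa1b, Hsp90aa1 and Dnajc2. Hspa1a and Hspa1b are nearly identical copies, so their calls may rest on a shared signal. In knockout hearts alone 4 members rose (Dnajc2, Hsp90aa1, Bag2 and Hspa1a) and none fell, where 3.81% of all genes passed, 2.05% higher and 1.76% lower. There 14 members had an unadjusted p under 0.05 (21.1% of all genes). Hspa1a, counted in both contrasts, passed the filter on low values through its banded hearts, as given below. With all 18193 genes tested, Hspa1a did not pass in knockout, where 1.17% of all genes passed. Hspa1b and Dnajc2 then did not pass averaged, where 0.423% of all genes passed. Hspa1l, which lies below the filter, passed in both. In wild-type hearts alone no member passed, as was true of all 10916 genes (0%), and 12 members had an unadjusted p under 0.05, where 4.89% of all genes had one. The median change of the 70 members was 0.06 averaged over genotypes, against -0.02 over all tested genes.

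Hspa1a, the stress-inducible Hsp70, had intensities of 78.1, 169 and 145 in knockout banded hearts, against 48.9, 30.4 and 35.8 in knockout sham hearts. It had 93.1, 113 and 220 in wild-type banded hearts, against 28.6, 32.9 and 45.2 in wild-type sham hearts. Every banded array read above every sham array, and the lowest banded array was the one labelled knockout banded 1. The averaged change was 1.47 on the log2 scale (SE 0.21, limma adjusted p = 0.0133). It was 1.39 in knockout (SE 0.30, adjusted p = 0.0291) and 1.55 in wild type (SE 0.30, adjusted p = 0.698), and the difference between these, the interaction, was -0.16 (adjusted p = 0.938). A pseudocount of 1 or 64 in place of 16 gave averaged changes of 1.79 and 0.95, since low intensities are compressed by the pseudocount. Hspa1a passed the filter on low values through its banded hearts: its mean on the scale log2(intensity + 16) was 5.75 in knockout sham and 5.68 in wild-type sham hearts, below the lowest mean among tested genes, 5.98. With all 18193 genes tested, its averaged change still passed (limma adjusted p = 0.0294) and its change in knockout did not (adjusted p = 0.0533).

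Hspa1b is a nearly identical copy of Hspa1a, so its probes may bind transcripts of both genes and the pair cannot be separated with certainty. Hspa1b read 113, 302 and 274 in knockout banded hearts, against 100, 102 and 68.0 in knockout sham hearts. In wild-type banded hearts it read 167, 193 and 403, against 84.3, 99.9 and 88.5 in wild-type sham hearts. The order of the arrays was close to that of Hspa1a: knockout banded 1 was lowest and wild-type banded 3 highest among banded hearts, and no banded array overlapped the sham arrays. The averaged change was 1.18 (SE 0.24, limma adjusted p = 0.0357). It passed in 1 of the 12 fits that leave out an array, that without knockout banded 1, and did not pass with all 18193 genes tested (adjusted p = 0.0628). The other probe sets of Hspa1b changed by 1.49 and 1.27.

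Hsp90aa1, the inducible cytosolic Hsp90, read 2092, 3194 and 2916 in knockout banded hearts, against 1568, 1394 and 1199 in knockout sham hearts. It read 2201, 2713 and 2916 in wild-type banded hearts, against 1834, 1928 and 1355 in wild-type sham hearts. Here too every banded array lay above every sham array. The averaged change was 0.79 (SE 0.13, limma adjusted p = 0.0215), with 0.96 in knockout (adjusted p = 0.0207) and 0.62 in wild type (adjusted p = 0.918). Other Hsp90aa1 probe sets of mean intensity 1260 and 851 changed by 0.75 and 0.83, and the dim ones, at 20.1 and 6.85, by -0.19 and 0.01. With the mean over all its probe sets, dim ones included, neither call held, at 0.55 in knockout (limma adjusted p = 0.0534) and 0.44 averaged (adjusted p = 0.0545). Hsp90b1, the Hsp90 of the endoplasmic reticulum, averaged 2089 ± 297 in knockout banded and 1792 ± 184 in knockout sham hearts, and 2395 ± 378 in wild-type banded and 1927 ± 119 in wild-type sham hearts (SD, n = 3 each). Its averaged change of 0.26 did not pass (limma adjusted p = 0.185).

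**Figure D1:**
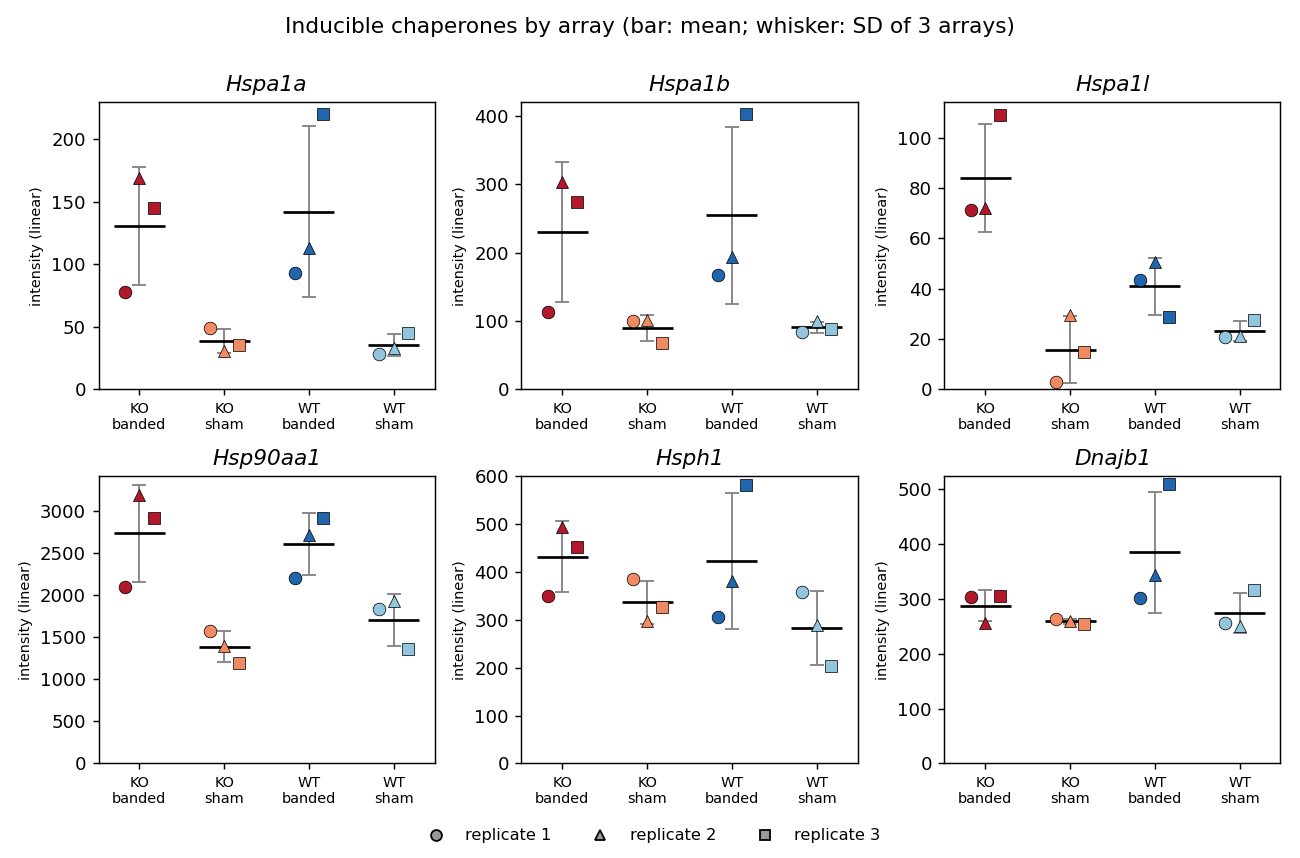
Intensity of 6 inducible members on each array (linear axis from 0), with knockout banded, knockout sham, wild-type banded and wild-type sham hearts from left to right. Points are arrays, marked by replicate number, bars are group means and whiskers the SD of 3 arrays. For Hspa1a, Hspa1b, Hspa1l and Hsp90aa1 the banded points of each genotype lie above its sham points.

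In 4 members all 6 banded arrays lay above all 6 sham arrays, and in none below (0.568% and 0.751% of all tested genes). Beside Hspa1a, Hspa1b and Hsp90aa1 the fourth was Dnajc3, named after its values were seen, an endoplasmic reticulum protein that curbs the kinase Eif2ak3. Dnajc3 read 410 to 480 in knockout banded and 342 to 369 in knockout sham hearts, and 410 to 453 in wild-type banded and 278 to 394 in wild-type sham hearts. Its averaged change was 0.29 (limma adjusted p = 0.119). Within genotypes, 11 members were higher and 5 lower without overlap in knockout banded hearts (12.2% and 14.4% of all genes), and 9 were higher and 6 lower in wild-type banded hearts (3.76% and 6.17%).

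Among the other tested Hsp70 and Hsp110 members no change with banding passed. Hspa1l, the gene next to Hspa1a on chromosome 17, starts 547 bases from it and runs the other way; its product is known for its role in sperm. Below the filter on low values, Hspa1l read 71.2, 71.9 and 109 in knockout banded hearts, against 3.01, 29.7 and 14.8 in knockout sham hearts. It read 43.6, 50.6 and 28.7 in wild-type banded hearts, against 20.6, 21.4 and 27.6 in wild-type sham hearts. Within each genotype the groups did not overlap. With all 18193 genes tested, its change was 1.72 in knockout (SE 0.29, limma adjusted p = 0.0266) and 0.52 in wild type (adjusted p = 0.930), where 1.17% of all genes passed in knockout. These sizes turn on the pseudocount, since 2 knockout sham values lie below 16: the change in knockout was 2.74 with a pseudocount of 1 and 0.89 with 64, and it passed with both.

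Hspa8, the constitutive cytosolic Hsp70, averaged 6067 ± 360 in knockout banded and 5149 ± 505 in knockout sham hearts, and 6823 ± 852 in wild-type banded and 5688 ± 567 in wild-type sham hearts (SD, n = 3 each). Its averaged change was 0.25 (limma adjusted p = 0.164). Hspa5, the Hsp70 of the endoplasmic reticulum known as BiP, averaged 2515 ± 169 in knockout banded and 2815 ± 219 in knockout sham hearts, and 3371 ± 652 in wild-type banded and 2950 ± 618 in wild-type sham hearts. No contrast passed for Hspa5, and its averaged banding change was 0.02 (adjusted p = 0.956). Hsph1, the Hsp110 exchange factor, read 350, 494 and 452 in knockout banded hearts, against 386, 298 and 328 in knockout sham hearts. It read 305, 382 and 582 in wild-type banded hearts, against 358, 289 and 204 in wild-type sham hearts. The groups overlapped in both genotypes, and the averaged change of 0.44 did not pass (limma adjusted p = 0.184).

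The J-domain family gave 1 member that passed among 37 tested. Dnajc2, also known as Mpp11 or zuotin, sits on the ribosome and starts the Hsp70 cycle on new chains. It read 246, 320 and 252 in knockout banded hearts, against 173, 144 and 151 in knockout sham hearts, and 231, 199 and 186 in wild-type banded hearts, against 174, 172 and 197 in wild-type sham hearts. The knockout groups did not overlap, while wild-type banded 3 lay below the highest wild-type sham array. The change was 0.74 in knockout (SE 0.13, limma adjusted p = 0.0163), 0.16 in wild type (adjusted p = 0.979) and 0.45 averaged (adjusted p = 0.0348). The interaction was 0.58 (SE 0.18, adjusted p = 0.442). Another bright probe set of Dnajc2 changed by 0.54 in knockout, and the mean over all 4 of its probe sets, dim ones included, no longer passed (0.34, adjusted p = 0.0935). The averaged change passed in 2 of the 12 fits that leave out an array, and not with all 18193 genes tested (adjusted p = 0.0572).

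Dnajb1, the main partner of inducible Hsp70 and a classical Hsf1 target, read 303, 256 and 305 in knockout banded hearts, against 264, 260 and 254 in knockout sham hearts. In wild-type banded hearts it read 301, 344 and 511, against 255, 251 and 317 in wild-type sham hearts. The highest value belonged to wild-type banded 3, and both genotypes overlapped. Dnajb1 changed by 0.29 on average and did not pass (limma adjusted p = 0.213). Dnaja1, which works with Hspa8, averaged 661 ± 91.3 in knockout banded and 563 ± 58.8 in knockout sham hearts, and 789 ± 180 in wild-type banded and 499 ± 51.2 in wild-type sham hearts (SD, n = 3 each). Its p in wild type was the smallest among members after that of Hspa1a, with a change of 0.63 (SE 0.16, adjusted p = 0.798).

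Bag2, which inhibits the ubiquitin ligase Stub1 that works with Hsp70, read 698, 917 and 867 in knockout banded hearts, against 593, 524 and 542 in knockout sham hearts. It read 578, 552 and 530 in wild-type banded hearts, against 560, 600 and 522 in wild-type sham hearts. The knockout banded arrays were higher than the other 9 arrays, which all lay between 522 and 600. Banding changed Bag2 by 0.56 in knockout (SE 0.11, limma adjusted p = 0.0213) and by -0.02 in wild type (adjusted p = 0.994), and the interaction was 0.58 (SE 0.15, adjusted p = 0.442). Bag3, which links Hsp70 and Hspb8 to autophagy in striated muscle, averaged 2673 ± 359 in knockout banded and 2262 ± 330 in knockout sham hearts, and 2623 ± 161 in wild-type banded and 2058 ± 317 in wild-type sham hearts (SD, n = 3 each). Its averaged change of 0.30 did not pass (limma adjusted p = 0.144).

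None of the 8 tested small heat-shock members passed. Hspb1, known as Hsp27 in human and Hsp25 in mouse, read 4502, 5679 and 5860 in knockout banded hearts, against 4750, 3675 and 3902 in knockout sham hearts. In wild-type banded hearts it read 5040, 5923 and 5793, against 4237, 3997 and 4718 in wild-type sham hearts. Knockout banded 1 fell within the knockout sham range, and the wild-type groups did not overlap. The averaged change was 0.37 (SE 0.10, limma adjusted p = 0.0713), and the other probe set of Hspb1 changed by 0.53.

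Cryab, alphaB-crystallin, which protects desmin filaments, averaged 7802 ± 498 in knockout banded and 8122 ± 840 in knockout sham hearts, and 8580 ± 1087 in wild-type banded and 8274 ± 2261 in wild-type sham hearts (SD, n = 3 each). Hspb7, a partner of filamin in the heart, averaged 7881 ± 182 in knockout banded and 8466 ± 585 in knockout sham hearts, and 8581 ± 790 in wild-type banded and 8299 ± 1928 in wild-type sham hearts. Averaged over genotypes, Cryab changed by 0.01 (limma adjusted p = 0.970) and Hspb7 by -0.01 (adjusted p = 0.959). In both genes the wild-type sham arrays spread more than the difference between any 2 group means. Both read lowest on wild-type sham 2 and highest on wild-type sham 3. Those arrays also had the lowest and highest maximum over all probe sets, 10231 and 21832. Another bright Cryab probe set leaned higher with banding, with overlap. It read 6341, 6917 and 7878 in knockout banded hearts, against 7396, 5730 and 5558 in knockout sham hearts. In wild-type banded hearts it read 5887, 7259 and 5788, against 5650, 4964 and 6830 in wild-type sham hearts.

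The mitochondrial chaperonin pair, Hspd1 (Hsp60) and Hspe1 (Hsp10), lay lower in knockout banded hearts without passing. Hspd1 read 4106, 3507 and 3404 in knockout banded hearts, against 4773, 4418 and 4451 in knockout sham hearts. It read 4279, 4279 and 4302 in wild-type banded hearts, against 4470, 4116 and 4914 in wild-type sham hearts. The knockout groups did not overlap. The change in knockout was -0.31 for Hspd1 (SE 0.10, limma adjusted p = 0.107) and -0.24 for Hspe1 (adjusted p = 0.462). All 7 mitochondrial members had negative changes in knockout (Hspd1, Hspe1, Hspa9, Dnaja3, Dnajc11, Dnajc15 and Dnajc30; median -0.18), with none passing, and 5 of the 7 in wild type (median -0.01). Of 8 members listed for the endoplasmic reticulum, 6 lay above 0 in each genotype, with medians of 0.17 in both, and none passed. The 6 were not the same in both genotypes. Hspa5 and Dnajb9 averaged 2515 and 1394 in knockout banded, against 2815 and 1474 in knockout sham hearts. Dnajb11 and Dnajc10 averaged 195 and 368 in wild-type banded, against 220 and 412 in wild-type sham hearts. Among those the list left out were Dnajb12, Dnajc16 and Dnajc25. These 3 averaged 168, 129 and 156 in wild-type banded and 203, 157 and 185 in wild-type sham hearts. In knockout banded hearts they averaged 191, 182 and 177, against 178, 147 and 201 in knockout sham hearts. Over all tested genes, 46.9% of changes lay above 0 in knockout and 44.2% in wild type.

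**Figure D2:**
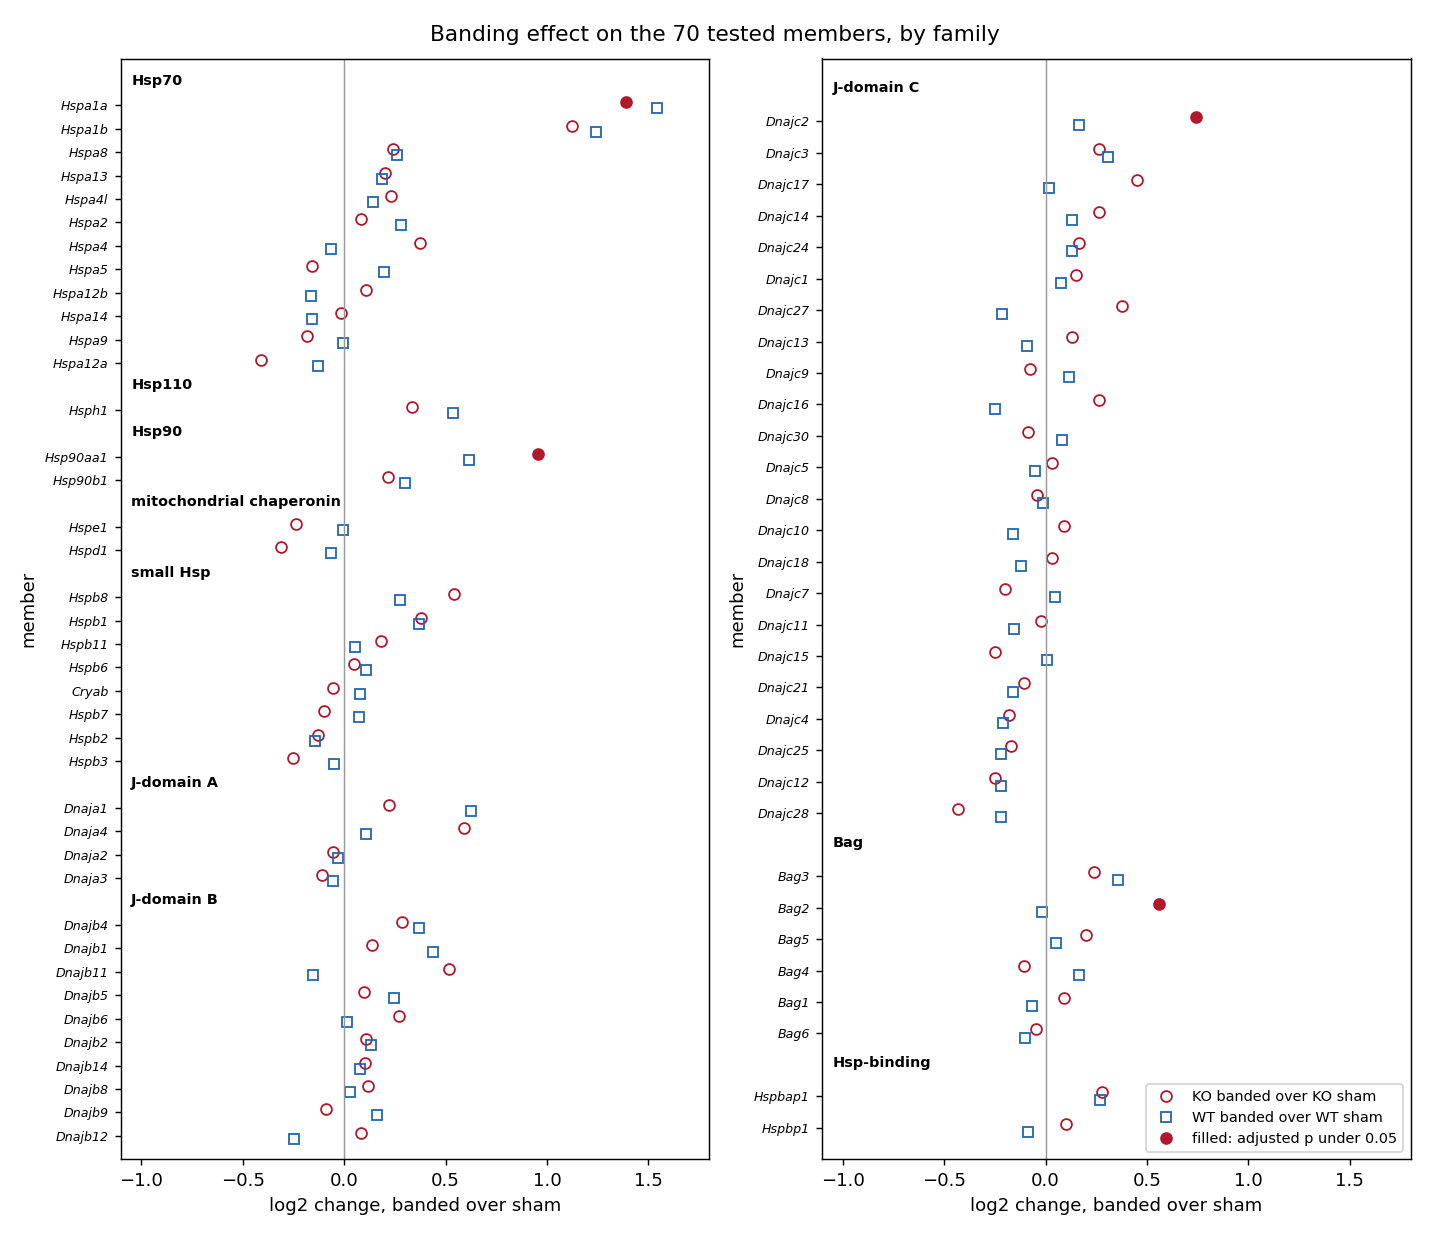
Change with banding on the scale log2(intensity + 16) for the 70 tested members, grouped by family and ordered within it by the averaged change. Red circles are knockout banded over knockout sham, blue squares wild-type banded over wild-type sham, and filled symbols passed at an adjusted p under 0.05. Hspa1a, Hspa1b, Hsp90aa1 and Hsph1 lie to the right of 0 in both genotypes, and Bag2 only in knockout; Bag2's interaction had an adjusted p of 0.442.

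The question whether loss of apelin changes these genes was asked by setting knockout against wild-type hearts. No member passed in sham hearts, in banded hearts, averaged over surgery or in the interaction, and neither did any of the 10916 genes (0% in each). Members with an unadjusted p under 0.05 numbered 0 of 70 in sham, 12 in banded, 6 averaged and 5 in the interaction. Over all genes these shares were 5.22%, 14.6%, 10.6% and 9.11%. In sham hearts the smallest p values belonged to Hspa12b, a distant Hsp70 relative of endothelial cells, Dnajc8, which takes part in splicing, and Dnajc13, an endosomal protein. Their differences were -0.36, 0.21 and -0.19 (limma adjusted p = 0.930 each). The other Dnajc8 probe set went the opposite way, at 512 to 520 in knockout sham and 562 to 603 in wild-type sham hearts.

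In banded hearts the 3 smallest p values belonged to Bag2, Dnaja4 and Hspa4. Bag2 differed by 0.56 between knockout banded and wild-type banded hearts (SE 0.11, limma adjusted p = 0.0913). Dnaja4, a J-domain partner of Hsp70 abundant in striated muscle, read 1228, 1661 and 1837 in knockout banded hearts, against 1160, 911 and 1117 in wild-type banded hearts. The sham hearts read 1125, 996 and 962 in knockout and 1150, 1000 and 815 in wild type. The difference between banded groups was 0.55 (SE 0.16, adjusted p = 0.175). Hspa4, a cytosolic exchange factor of the Hsp110 kind, read 650, 705 and 762 in knockout banded hearts, against 603, 523 and 567 in wild-type banded hearts, and the difference was 0.31 (SE 0.10, adjusted p = 0.195).

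Averaged over surgery the smallest p values belonged to Bag2 (0.27, limma adjusted p = 0.363), Dnajb6, which holds back aggregates of misfolded protein (0.29, adjusted p = 0.398), and Dnaja4 (0.31, adjusted p = 0.414). Of the other Dnajb6 probe sets, that of mean intensity 340 leaned the same way, and those of 142 and 47.2 the opposite way. For the inducible members, the averaged difference between genotypes was -0.00 for Hspa1a (SE 0.21) and -0.08 for Hspa1b (SE 0.24), and it was -0.12 for Hsp90aa1 (SE 0.13). Without overlap, 13 members were higher and 3 lower in knockout banded than in wild-type banded hearts, against 10.1% and 8.95% of all genes. In sham hearts these counts were 2 and 2 (5.5% and 5.32%), and with all 6 knockout arrays set against all 6 wild-type arrays they were 0 and 0 (0.22% and 0.192%).

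**Figure D3:**
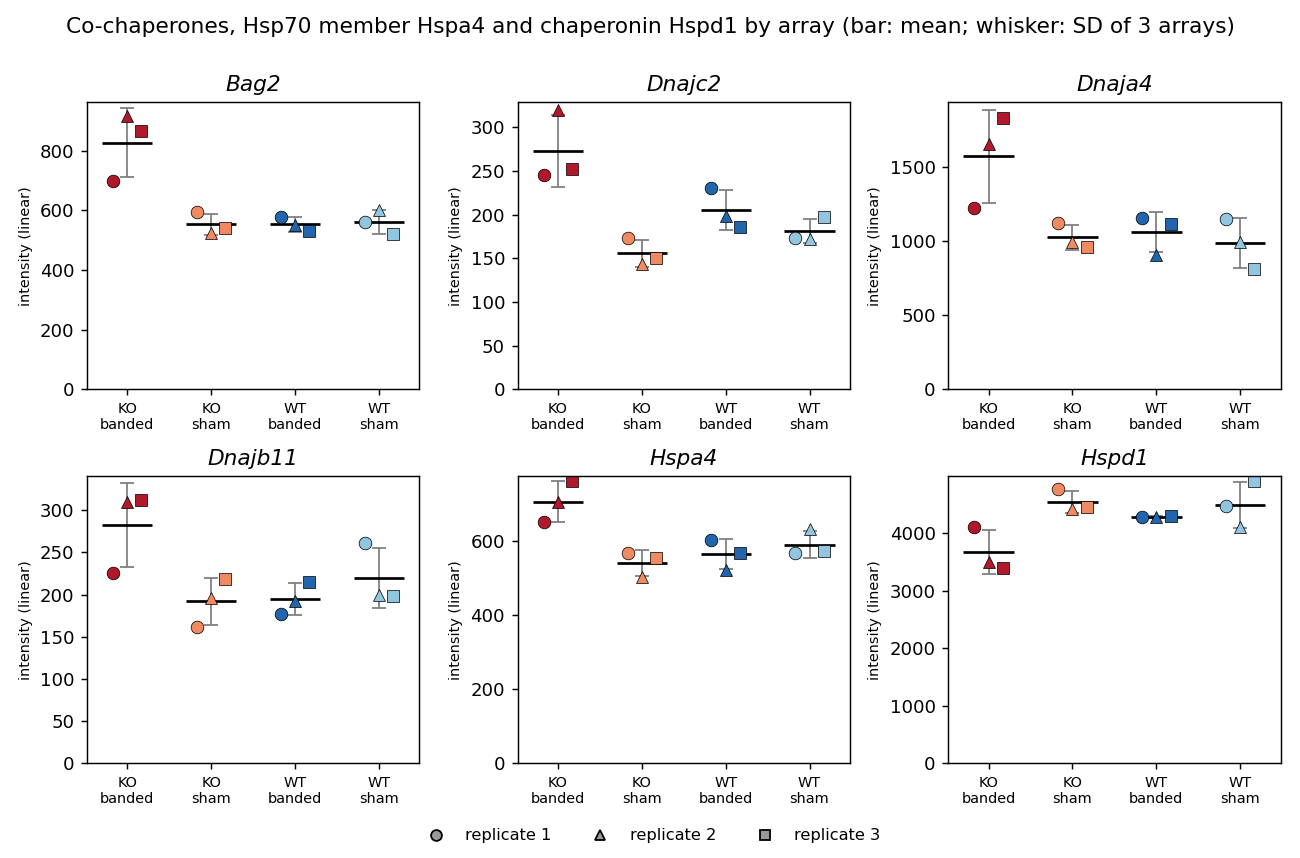
Intensity of Bag2, Dnajc2, Dnaja4, Dnajb11, Hspa4 and Hspd1 on each array (linear axis from 0), with knockout banded, knockout sham, wild-type banded and wild-type sham hearts from left to right. Points are arrays, bars group means and whiskers the SD of 3 arrays. In the Bag2 panel the 3 knockout banded points (698, 867 and 917) lie above the other 9 points, and in the Hspd1 panel the knockout banded points (3404 to 4106) lie below the knockout sham points (4418 to 4773).

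The calls in knockout hearts turned on single arrays. Without the array labelled knockout banded 1, 13 members passed in knockout, 10 higher and 3 lower, where 13.2% of all genes passed. Higher were Bag2, Dnaja4, Dnajb11, Dnajc2, Hsp90aa1, Hspa1a, Hspa1b, Hspa4, Hspb1 and Hspb8, and lower were Dnajc12, Dnajc28 and Hspd1. Hspa1a then changed by 1.68 (limma adjusted p = 0.00284), Hsp90aa1 by 1.14 (adjusted p = 0.00143) and Bag2 by 0.67 (adjusted p = 0.00113). Hspb8, the small heat-shock partner of Bag3, changed by 0.63 (adjusted p = 0.0430), and Dnajb11, a partner of Hspa5 in the endoplasmic reticulum, by 0.66 (adjusted p = 0.0143). No member passed in knockout without knockout banded 2, knockout banded 3, knockout sham 2 or knockout sham 3, and the direction of each of the 4 calls held. Those fits called 0.0824% to 0.366% of all genes. Without knockout sham 1, Hspa1a alone of the 4 did not pass (limma adjusted p = 0.0585). For banding averaged over genotypes, none passed without knockout sham 2 or 3 (0.0733% and 0.0458% of all genes). The count was 1 without knockout banded 2, knockout banded 3 or wild-type banded 2 (0.137% to 0.192% of all genes). It was 2 without knockout sham 1, wild-type banded 1, wild-type sham 2 or wild-type sham 3 (0.165% to 0.376% of all genes).

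Without the array labelled knockout banded 1, 4 members also differed between knockout banded and wild-type banded hearts, where 6.11% of all genes did. Bag2 was 0.67 higher (limma adjusted p = 0.00295), Dnaja4 0.72 (adjusted p = 0.0167) and Dnajb11 0.64 (adjusted p = 0.0286), and Dnajb9, which regulates Hspa5 and Ern1, differed by -0.38 (adjusted p = 0.0452). The interaction for Bag2 was then 0.69 (adjusted p = 0.0241), with 1.91% of all genes passing. With wild-type banded 3 left out as well, 12 members passed in knockout and 11 averaged (12.4% and 8.5% of all genes), and Bag2, Dnaja4 and Dnajb11 differed between the banded groups (3.24% of all genes). Without wild-type banded 3 alone, the averaged change of Hspa1a was 1.30 (limma adjusted p = 0.0136).

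**Figure D4:**
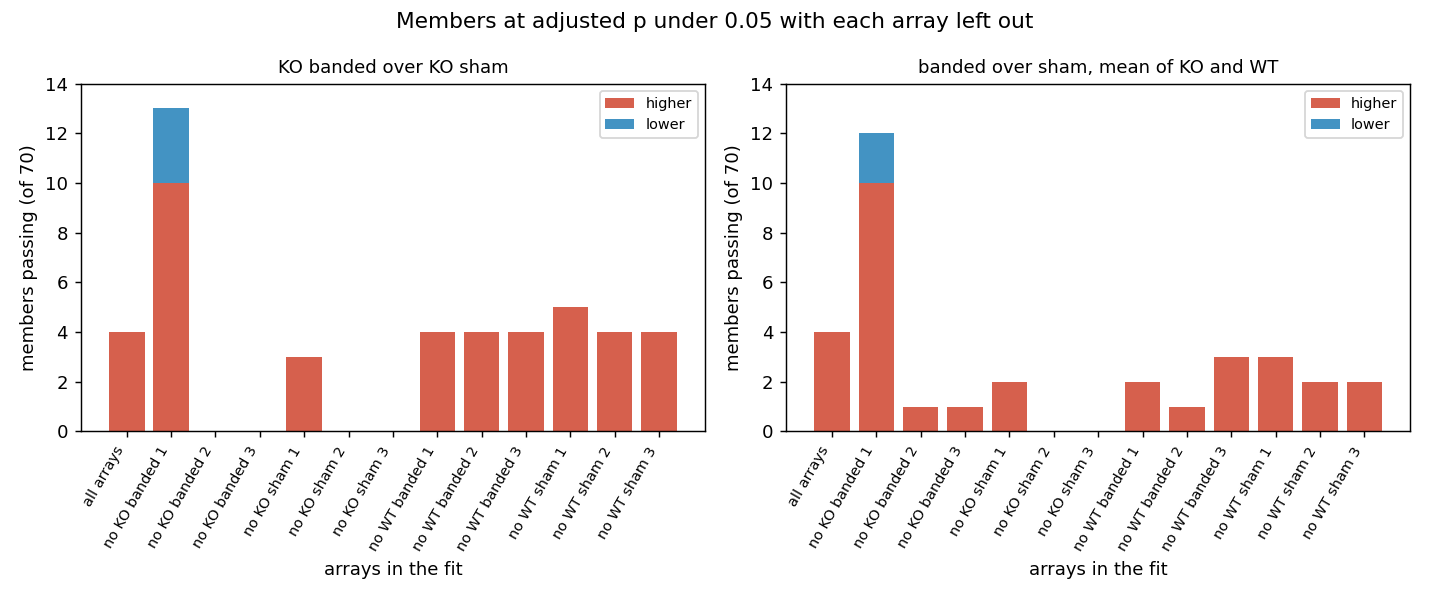
Number of the 70 tested members at an adjusted p under 0.05 with all arrays and with each array left out, for banding in knockout and for banding averaged over genotypes. Red is higher and blue lower in banded hearts. The bars reach 13 and 12 without the array labelled knockout banded 1, against 4 with all arrays, and 0 without knockout sham 2 or 3. Of all genes, 13.2% and 9.12% passed without knockout banded 1, 3.81% and 1.6% with all arrays, and at most 0.366% without knockout sham 2 or 3.

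Other measures moved with banding in knockout hearts. For Actb, the control probe sets at the 3' end read against those at the 5' end, a sign of RNA integrity, gave a log2 ratio of -0.22 to -0.17 in knockout banded and -0.01 to 0.30 in knockout sham hearts. For Gapdh the same ratio overlapped between these groups, at -0.35 to -0.32 in knockout banded and -0.37 to -0.33 in knockout sham hearts. The 6 cardiomyocyte markers summed lower, as given above, and 1 of them fell, the calcium release channel Ryr2, by 0.53 (limma adjusted p = 0.0320). The highest intensity of any probe set was also lower, at 10813 to 11291 on knockout banded and 12544 to 14746 on knockout sham arrays. Wild-type sham 2 and 3, with maxima of 10231 and 21832, had marker sums of 50341 and 95685. A lower marker sum and a lower array maximum cannot be told apart here. Of 4 fibroblast markers 1 rose, the collagen gene Col1a1. It read 441, 1068 and 639 in knockout banded hearts, against 285, 257 and 324 in knockout sham hearts, a change of 1.18 (adjusted p = 0.0287), and it changed by 0.84 averaged over genotypes (adjusted p = 0.0388). The fibroblast markers summed to 4752 to 6738 in knockout banded and 5196 to 6112 in knockout sham hearts. The 12 clock genes summed to 7477, 3123 and 3780 in knockout banded hearts, against 7758 to 8663 in knockout sham hearts, so that the array labelled knockout banded 1 was nearest to the sham arrays here as it was for Hspa1a, Hspa1b and Bag2. In wild type the clock genes summed to 5063 to 6688 in banded and 3796 to 8367 in sham hearts. The part of these measures in the members' changes was not tested.

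Whether a heart that read high for Hspa1a within its group also read high for other members was tested, and no relation passed after adjustment. The log2 value of each array was taken relative to its group mean, and Hspa1a was set against 10 members over the 12 arrays, with exact two-sided permutation of arrays within groups. The relation with Hspb1 had a Pearson r of 0.76 (exact permutation p = 0.0116, adjusted over the 10 pairs 0.116) and a Spearman rho of 0.76 (p = 0.0185, adjusted 0.154). That with Hspa1b had r = 0.88 (exact permutation p = 0.0409, adjusted 0.180) and rho = 0.76 (p = 0.0571, adjusted 0.154). Hspa1b probes may also bind Hspa1a transcripts, so this relation may be partly that of a signal with itself. For Hspa8 r was 0.66 (exact permutation p = 0.0540, adjusted 0.180) and rho 0.71 (p = 0.0355, adjusted 0.154). Without the 2 arrays farthest from the median, knockout banded 1 and wild-type banded 3, r was 0.78 for Hspb1, 0.74 for Hspa1b and 0.53 for Hspa8, with deviations still taken from the means of all 12 arrays. With the group means recomputed without them, r was 0.85 for Hspb1, 0.26 for Hspa1b and 0.43 for Hspa8.

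The other 7 relations were weaker by exact permutation p. With Hsph1 r was 0.61 (exact permutation p = 0.109, adjusted 0.272) and rho 0.62 (p = 0.0710, adjusted 0.154), and r was 0.33 without the 2 arrays. With Hsp90aa1 r was 0.55 (exact permutation p = 0.147, adjusted 0.295) and rho 0.61 (p = 0.0772, adjusted 0.154), and r was 0.31 without them. The remaining r values were 0.59 for Dnajb1, 0.38 for Hspe1, 0.21 for Cryab, 0.09 for Bag3 and -0.18 for Hspd1, with exact permutation p from 0.199 to 0.786. With the group means recomputed without the 2 arrays, the direction turned for 4 relations, to -0.12 for Hsph1, -0.036 for Hsp90aa1, -0.051 for Bag3 and 0.71 for Hspd1.

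**Figure D5:**
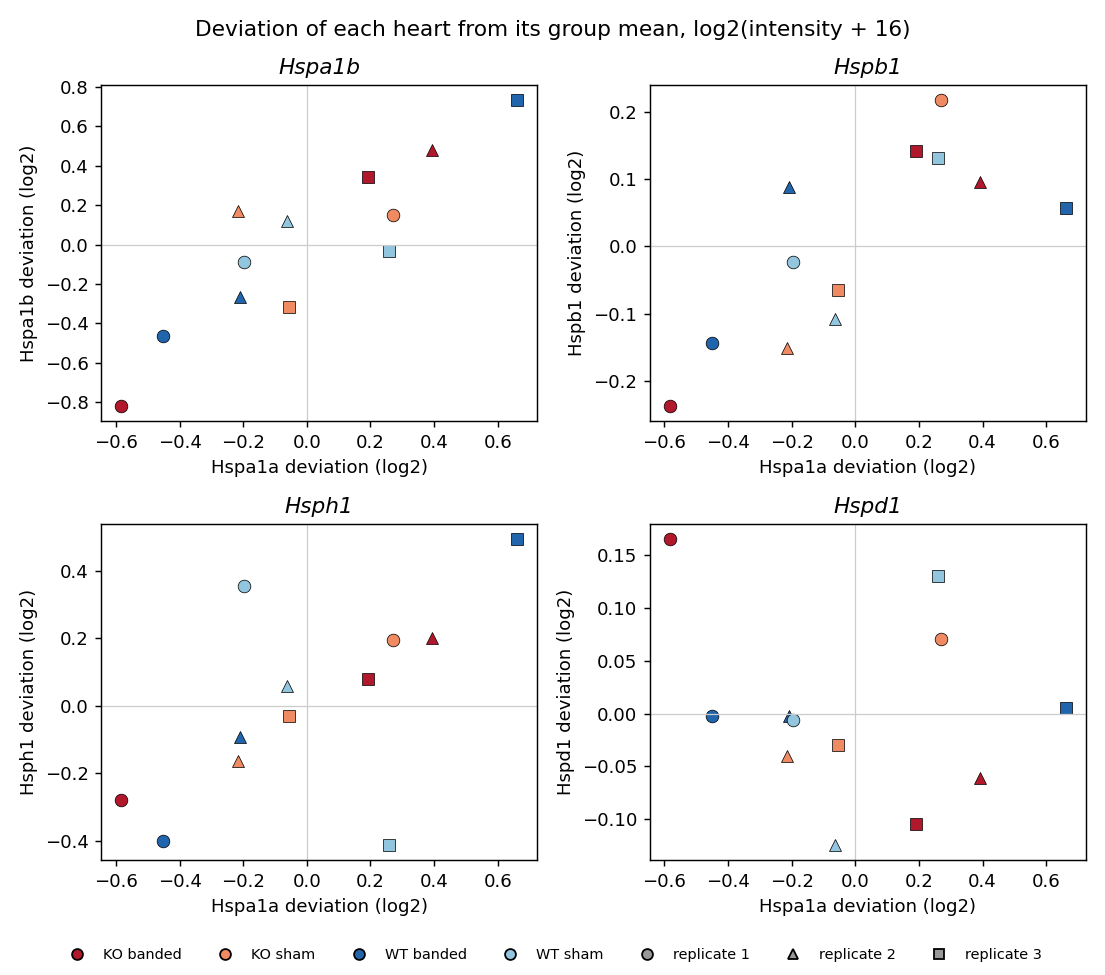
Deviation of each of 12 hearts from its group mean on the scale log2(intensity + 16), with Hspa1a on the horizontal axis and Hspa1b, Hspb1, Hsph1 or Hspd1 on the vertical one. Colours are groups and marker shapes replicate numbers. The points run from lower left to upper right for Hspa1b (r = 0.88) and Hspb1 (r = 0.76), with no pair past the adjusted threshold, and do not for Hspd1 (r = -0.18). Hspa1b probes may also bind Hspa1a transcripts. Without knockout banded 1 and wild-type banded 3, and with group means recomputed, r was 0.26 for Hspa1b, 0.85 for Hspb1 and 0.71 for Hspd1.

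The wider chaperone network was read through 53 partner genes, of which 48 were tested. In knockout hearts 2 of the 48 rose with banding and 2 fell, where 2.05% and 1.76% of all genes did, and averaged over genotypes 1 rose (0.934% of all genes). Flnc, filamin C, a client of the Bag3 and Hspb8 machinery at the Z-disc, read 897, 1155 and 1364 in knockout banded hearts, against 564, 443 and 493 in knockout sham hearts. It read 647, 597 and 595 in wild-type banded hearts, against 535, 363 and 554 in wild-type sham hearts. The banded arrays lay above the sham arrays in both genotypes, and the change was 1.15 in knockout (SE 0.17, limma adjusted p = 0.0119), 0.35 in wild type (adjusted p = 0.921) and 0.75 averaged (adjusted p = 0.0215).

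Cct8, a subunit of the cytosolic chaperonin TRiC, rose by 0.44 in knockout hearts (SE 0.10, limma adjusted p = 0.0350), with 998 to 1217 in knockout banded and 770 to 871 in knockout sham hearts. Fkbp4, an Hsp90 co-chaperone of steroid receptors, changed by -0.61 (adjusted p = 0.0350), with 656 to 865 in knockout banded and 903 to 1344 in knockout sham hearts. Aarsd1 changed by -0.52 (adjusted p = 0.0459). Of the 21 tested Hsp90 co-chaperones none rose and 2 fell, of 8 TRiC subunits 1 rose, of 7 disaggregation and autophagy factors 1 rose (Flnc), and none of the 6 prefoldin subunits or 4 exchange factors passed in knockout. Hsf4, the heat-shock factor measured above the filter, changed by -0.20 in knockout (adjusted p = 0.538).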

How the data were processed

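Total RNA from 12 mouse hearts, biotin-labelled, was measured on Affymetrix arrays, per the labels. The values the authors deposited are linear intensities, 1 per probe set and array. The sources used here do not give the software, background step or scaling behind them. With 2% trimmed at each end, all arrays averaged 150, so no further scaling was applied. Of 45101 probe sets, 64 controls were left out. Platform annotation named 1 gene for 34945, several for 932, and did not list 9160.

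Intensities were taken as log2(value + 16), with 1 probe set per gene. One limma model (3.58.1, R 4.3.3) with 4 group means, eBayes and a variance trend was fitted to all 12 arrays, with 8 residual degrees of freedom. All 7 contrasts were two-sided and adjusted by Benjamini-Hochberg over 10916 genes, with 0.05 as the threshold. Whether the p-values cover more than technical spread rests on the labels' word that replicates are biological. The procedure was tested on simulated data. The members and lists were chosen with earlier results of these data known. The text names members passing in any contrast, the 3 smallest p per contrast, fixed inducible and cardiac members, partners that passed, and members seen to pass without 1 array. Heat-shock elements were searched in RefSeq windows (GRCm38.p6), leaving out the 50 bases after each start. The number of arrays limits the precision. Alternatives were the filter, pseudocount, scaling, variance trend, array weights, probe sets per gene, arrays in the fit and the replicate block. Other pseudocounts for Hspa1l were added after seeing the data.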

Additional observations from a re-analysis of the deposited data

Results flagged for a closer look

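Hspa1l was singled out because a signal appeared in a gene outside the tested set, above its level in the sham hearts. It lies below the filter on low values. With all 18193 genes tested, its change with banding averaged over genotypes was 1.12 on the log2 scale (SE 0.20, limma adjusted p = 0.0440), with 1.72 in knockout hearts and 0.52 in wild-type hearts. The interaction was 1.20 (adjusted p = 0.537). These sizes turn on the pseudocount of 16, as 2 knockout sham values lie below it: the averaged change was 1.75 with a pseudocount of 1, where it did not pass (adjusted p = 0.0725), and 0.58 with 64 (adjusted p = 0.0401). Its intensities were 71.2 to 109 in knockout banded and 3.01 to 29.7 in knockout sham hearts, and 28.7 to 50.6 in wild-type banded and 20.6 to 27.6 in wild-type sham hearts.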

How the results depend on the processing

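The count of members passing for banding in knockout was 4, and it became 8 under quantile scaling (3.67% of all genes), 15 with array weights (17.1%), 12 without both knockout banded 1 and wild-type banded 3 (12.4%), and 0 with only the compared groups in the fit (0.678%). Leaving out 1 array gave 0 to 13 (0.0824% to 13.2%). Averaged over genotypes the count was 4, and it became 7 under quantile scaling (2%), 11 with array weights (7.04%), 11 without both arrays (8.5%), and 0 to 12 with 1 array left out (0.0458% to 9.12%): 12 without the array labelled knockout banded 1, 0 without knockout sham 2 or 3, 1 without knockout banded 2, knockout banded 3 or wild-type banded 2, and 2 without knockout sham 1, wild-type banded 1, wild-type sham 2 or 3. Between knockout banded and wild-type banded hearts the count of 0 became 5 with array weights (5.32%) and 3 without both arrays (3.24%). With 1 array left out it was 0 to 4 (0% to 6.11%). For the genotype difference averaged over surgery and for the interaction the count was 0 to 1 with 1 array left out. The 1 (Bag2) was found without knockout banded 1, where 1.29% and 1.91% of all genes passed. The cause of these moves was not tested, except that a fit of only the compared groups holds fewer arrays.

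The replicate numbers do not pair the arrays: of 18 same-number pairs, 2 had a correlation of deviations above 0.1 (range -0.28 to 0.23). With the replicate block, 4 members passed in knockout (2.17% of all genes) and 2 averaged (0.55%). The 2 were Hspa1a and Hsp90aa1, while the averaged changes of Dnajc2 (limma adjusted p = 0.0665) and Hspa1b (adjusted p = 0.0544) did not pass.

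No change turned its direction among the members that passed, had the 3 smallest p in a contrast, or were Hspa1l; the directions of other members were not compared across alternatives. Without knockout banded 1 and wild-type banded 3, with group means recomputed, r with Hspa1a turned to -0.12 for Hsph1, -0.036 for Hsp90aa1, -0.051 for Bag3 and 0.71 for Hspd1, and no pair passed under any setting. Of 607 comparisons of such a value or correlation with an alternative, 535 kept direction and call.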

Other observations

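A few J-domain genes outside the inducible group differed in level between groups, and none of these differences passed with all arrays. Dnajc16 averaged higher in knockout banded than in wild-type banded hearts by 0.43 on the log2 scale (limma adjusted p = 0.223). Its other probe set overlapped, at 76.1 to 133 in knockout banded and 87.4 to 120 in wild-type banded hearts. Dnajc27 changed with banding by 0.38 in knockout and by -0.21 in wild type (interaction 0.59, limma adjusted p = 0.552). Knockout banded 1 read highest, at 369. The other Dnajc27 probe set leaned the other way in both genotypes. It read 57.2 to 92.3 in knockout banded and 63.6 to 104 in knockout sham hearts, and 114 to 124 in wild-type banded and 78.2 to 116 in wild-type sham hearts. Dnajc12 and Dnajc28 lay lower in banded hearts of both genotypes, by -0.25 and -0.43 in knockout and by -0.22 each in wild type, with averaged adjusted p = 0.210 for Dnajc12 and 0.181 for Dnajc28. The 2 probe sets of Dnajc28 gave averaged changes of -0.33 and -0.29. Without the array labelled knockout banded 1, Dnajc12 changed by -0.42 in knockout and passed averaged (limma adjusted p = 0.0135), and Dnajc28 changed by -0.68 and passed averaged (adjusted p = 0.00465), where 9.12% of all genes passed. These members were chosen after their values were seen.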
